A study of Mus musculus with 7 samples.

Results

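Mature urinary bladder was set against the whole newborn body: 3 arrays of adult bladder against 1 array of pooled whole newborn mice, 4 of the 7 arrays in the series. The 4 arrays were chosen by their labels alone. The adult bladders were whole organs dissected from single male FVB/N mice (Theiler stage 28) that carry SMGA/EGFP, a transgene in which the promoter of smooth muscle gamma-actin (Actg2) drives a green fluorescent protein. The reference was RNA of wild-type FVB/N mice at postnatal day 1 (Theiler stage 27), 4 males and 4 females pooled as whole animals, and serves as a common standard. Its title speaks of bladders, whereas its source and treatment protocol describe whole animals, and the liver, muscle and skin transcripts given below were abundant in it. The other 3 arrays, used to estimate the spread and as values set beside the adult ones, were bladders of male SMGA/EGFP FVB/N mice at postnatal day 1, called newborn bladder here. All RNA was total RNA taken through 2 rounds of amplification and hybridized to Affymetrix mouse 430 version 2 arrays. Adult and reference samples therefore differed in organ, age, sex, transgene and number of animals, and the contributions of these cannot be told apart. Adult bladders were frozen and kept in liquid nitrogen and newborn bladders at a different temperature, so age and storage cannot be told apart between the bladder groups.

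The bladder stores urine and expels it. Its lining, the urothelium, is covered by plaques of uroplakins, membrane proteins that form a tight and stretchable barrier. Its wall, the detrusor, is a thick coat of smooth muscle that contracts on cholinergic and purinergic signals and relaxes through cyclic nucleotides and potassium channels. A whole newborn holds every organ, with a liver that makes plasma proteins and still forms blood cells, growing skeletal muscle, a cornifying skin and many dividing cells. A gene can therefore differ because an organ is present or absent, because of age, or both; in bulk RNA, fewer cells of a type and less RNA per cell cannot be told apart.

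Intensities were scaled so that every array had the same median, 273, and differences are on the log2(scaled intensity + 49) scale, which understates the change of dim genes. The adult arrays carried the tissue they were labelled with: of the bladder-defining markers Upk1a, Upk1b, Upk2, Upk3a, Actg2, Myh11, Cnn1, Tagln, Des and Smtn, each lay above the reference in all 3 adult arrays. The same held for 60.6% of all genes tested. Krt5 and Krt20, also chosen as urothelial markers, lay above the reference in all 3 adult arrays too, without passing the test. The deposited medians were 226, 312 and 234 in adult replicates 1, 2 and 3 and 434 in the reference, so the reference was brought down most by scaling. Adult replicate 2 stood apart from the other adult arrays: correlations of log2 values were 0.970 between replicates 1 and 3, 0.931 between 1 and 2 and 0.936 between 2 and 3. Transcripts of the male accessory glands, which lie against the bladder neck, were high in replicates 1 and 3 and low in replicate 2. The summed scaled intensity of the 11 such genes tested was 12240 and 11818 in replicates 1 and 3 and 519 in replicate 2, against 494 to 990 in newborn bladder and 985 in the reference. The seminal vesicle genes Svs4 (3808, 3.03 and 4509 in adult replicates 1 to 3) and Svs2 (1178, 5.32 and 999.97) were near the floor in replicate 2. None of the 11 passed the test in the adult comparison, and without adult replicate 2, 9 did, beside 4206 of 13270 genes called higher in that setting. Of 13 such genes on the array 12 lay at or below the median in the reference. Most of the 11 were therefore tested only because an adult array was above its median, and these counts describe the list and do not test it. What part these transcripts play in other differences was not tested, and results that rest on 1 adult array are given with and without it. The Y-linked genes Uty, Eif2s3y and Kdm5d lay above the reference in all 3 adult arrays and Xist below it, where the bladders are labelled male and the reference mixes the sexes. The 3 Y-linked genes were called higher and Xist lower, but none of the 3 was called when probe sets were averaged, Kdm5d was not called without scaling, and Eif2s3y was not called under the other 3 scalings or without adult replicate 1 or 3.

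Of 13472 genes tested, 3191 (23.7%) differed between adult bladder and the whole newborn at an adjusted p under 0.05 (limma; 5353 at an unadjusted p under 0.05), 2246 (16.7%) higher and 945 (7.01%) lower in adult bladder. A gene was tested if it lay above the array median in at least 1 of the 4 arrays. A gene dim in the reference was thus tested only if an adult array was above its median. Counts of rises among such genes describe a list and do not test it. The split between higher and lower depended on scaling. The median difference of the genes tested was 0.71 log2 after median scaling, so 70.4% of the called genes were higher, whereas 41.3% were without scaling (1102 higher and 1569 lower), 51.5% when arrays were scaled at their 75th percentile (1421 and 1340) and 53.2% after quantile normalization (1601 and 1411). The 3 adult arrays lay on one side of the reference for 10585 genes (78.6%), above it for 60.6% and below it for 17.9%. Under all 4 scalings 1072 genes (7.96%) were called higher and 941 (6.98%) lower. With 3 arrays against 1, an exact permutation test could not fall below 0.25 one-sided, so the p-values lean on the assumption that the reference varies like the bladder arrays. Leaving out adult replicate 2 raised the count to 5250, and leaving out replicate 1 or 3 lowered it to 1962 or 1736.

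**Figure D1:**
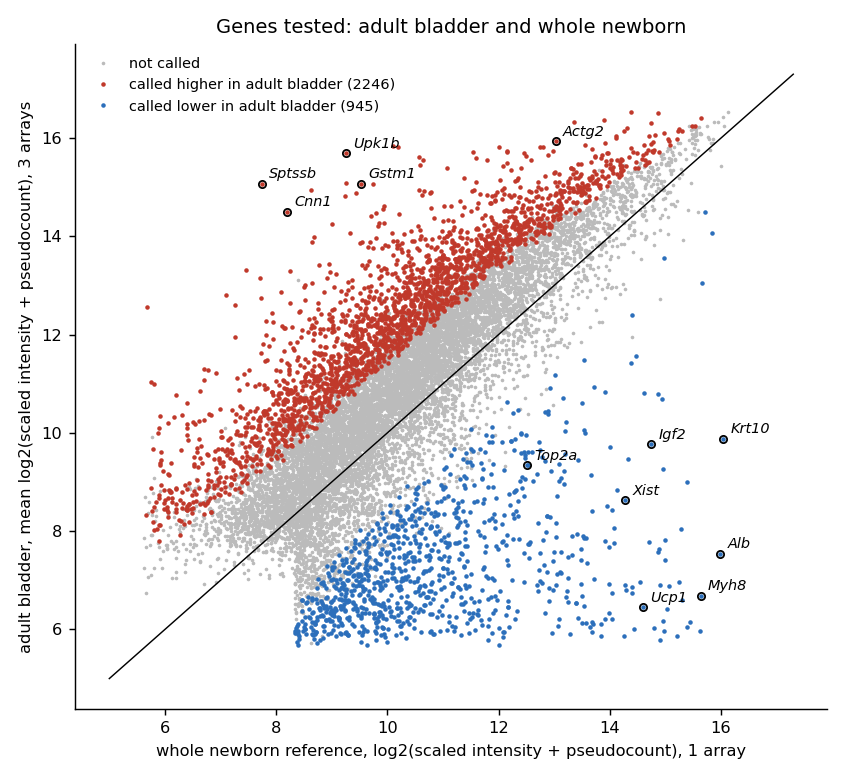
Mean log2(scaled intensity + pseudocount) of the 3 adult bladder arrays (vertical axis) against the 1 whole newborn array (horizontal axis) for 13472 tested genes; the line marks equality, red points are the 2246 genes called higher and blue points the 945 called lower. The red cloud follows the line at a short distance, while many blue genes, such as Alb, Myh8 and Ucp1, lie along the floor of adult bladder.

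The largest rises joined urothelial and smooth muscle genes. Sptssb, a small subunit of the enzyme that starts sphingolipid synthesis, read 44132, 22425 and 41226 in adult replicates 1 to 3 and 166 in the reference, a difference of 7.32 ± 0.52 log2 (SE; adjusted p = 3.98e-05). Htr4, a serotonin receptor that raises cyclic AMP, read 11818, 2913 and 6216 against 2.4998, a difference of 6.87 ± 1.03 (adjusted p = 0.00159). Adult values of both genes were far above the reference, with replicate 2 the lowest of the adult arrays. Across the 15 largest rises the differences ran from 5.34 to 7.32 log2, or 40.5-fold to 160-fold on this scale, and 7 of the 15 lay at or below the array median in the reference. Among them were Upk1b, Upk3a and Snx31 of the urothelium and Cnn1, Synm, Synpo2, P2rx1 and Mrvi1 of smooth muscle. Foxq1, a forkhead transcription factor, read 29068, 25570 and 32038 against 556, a difference of 5.57 ± 0.51 (adjusted p = 0.000103). The probe sets of Foxq1 and Mrvi1 may also read other sequences, and for each gene the 1 other tested probe set had a difference of the same sign. Sntg2, a syntrophin of the dystrophin complex, read 9163, 2617 and 9558 against 103. Trdn, which anchors calcium release proteins in striated muscle, read 17690, 1174 and 16978 against 87.2, and its other 3 tested probe sets had differences of the opposite sign. Averaging its probe sets left a difference of 0.31 (adjusted p = 0.757), so its rise rests on 1 probe set; the other 14 rises kept their calls under that alternative.

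The largest falls were genes of liver, skeletal muscle, gut and pancreas. The 15 differences ran from -9.66 to -8.27 log2, 309-fold to 807-fold on this scale, and every one of these genes lay at or below the array median in all 3 adult arrays. Alb, serum albumin, read 125, 113 and 179 in the adult arrays and 64876 in the reference. Myh8, the perinatal skeletal myosin heavy chain, read 127, 11.6 and 52.9 against 50787. Pnliprp1, a pancreatic lipase-related protein, read 22.2, 7.10 and 18.4 against 22092. Atp1b4, a muscle protein related to the beta subunits of the sodium pump, read 19.1, 2.85 and 6.87 against 19584. The adult values of these genes were dim, so the exact size of their folds is uncertain. All 30 genes kept their calls under the 4 scalings.

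**Figure D2:**
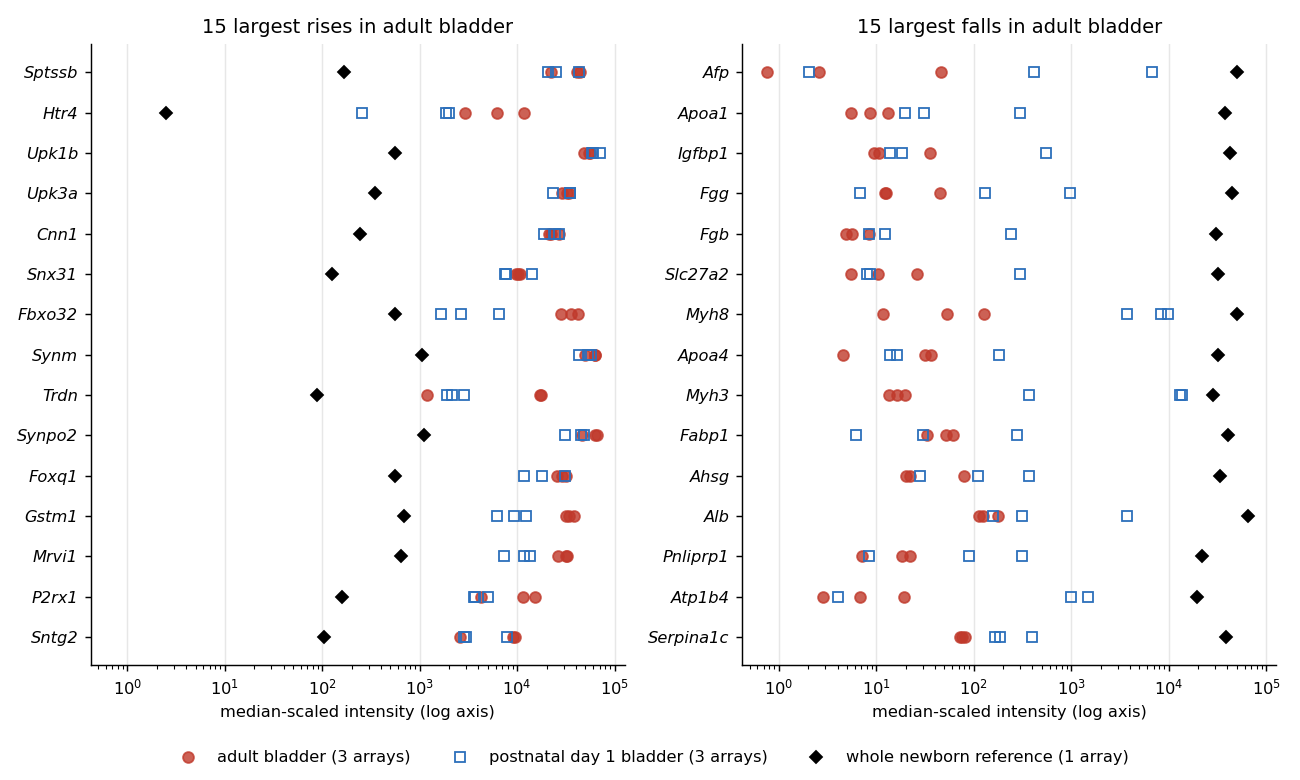
Median-scaled intensity on a log axis of the 15 genes with the largest rises (left) and the 15 with the largest falls (right), 1 point per array for adult bladder (red circles, 3), newborn bladder (blue squares, 3) and the whole newborn (black diamond, 1). The adult points lie to the right of the diamond in every row on the left and to the left of it in every row on the right. Newborn bladder lies near adult bladder in many rows and between adult and reference in others, among them Fbxo32, Gstm1, Mrvi1, Myh8 and Myh3.

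Uroplakins and other genes of the urothelial surface were high in adult bladder. Of the 9 tested, 7 rose and none fell, with a median difference of 4.15 log2 beside 0.71 for all genes tested, and the same counts held under all 4 scalings. In the reference 4 of the 9 lay at or below the median. These 4 were tested only through adult bladder, so the count describes the list and does not test it. Upk1b, a tetraspanin uroplakin, read 55681, 49003 and 54002 in adult bladder and 560 in the whole newborn (6.44 ± 0.30, adjusted p = 6.91e-06). Upk3a, its partner in one of the uroplakin pairs, read 34335, 28533 and 32154 against 345 (6.33 ± 0.38, adjusted p = 2.56e-05). Snx31, a sorting nexin that binds uroplakins on their way to lysosomes, read 10666, 9731 and 10186 against 126 (5.87 ± 0.50). The 3 genes had little spread among adult arrays and no overlap with the reference. Upk1a read 1584, 3475 and 1638 against 234, and Upk2 read 2131, 2249 and 2311 against 375, so both rose by smaller amounts (2.91 ± 0.62 and 2.42 ± 0.47). Krt20, a keratin of mature surface cells, was above the reference in all 3 arrays without passing the test (1.71 ± 0.58, adjusted p = 0.0561). In newborn bladder the list had a median difference of 4.58 from the same reference array.

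Of 8 urothelial keratins 5 rose and 2 fell, 4 and 2 of them under all 4 scalings. The simple-epithelium keratins Krt7, Krt19, Krt18 and Krt8 rose by 4.71, 3.14, 2.85 and 2.10 log2, and the basal keratin Krt15 by 1.71, a call lost without scaling and after quantile normalization. Krt7 read 23563, 16109 and 27099 in adult bladder against 783. Krt13 and Krt4, keratins of stratified lining epithelia, fell: Krt13 read 10.8, 63.3 and 66.1 against 2585 (-4.84 ± 0.62, adjusted p = 0.000688), and Krt4 read 515, 353 and 481 against 2622 (-2.44 ± 0.57, adjusted p = 0.0147). Newborn bladder had a mean Krt4 of 3397, and Krt4 was lower in adult than in newborn bladder (adjusted p = 0.00401). Krt5, a basal keratin shared with skin, read 8721, 9147 and 10883 against 5693 and did not pass (adjusted p = 0.248). Of 15 transcription factors of the urothelium, 11 rose and 9 did so under all 4 scalings. Tbx3, a T-box repressor, read 12531, 9740 and 12332 against 768 (3.82 ± 0.47, adjusted p = 0.000537). Gata3, a regulator of urothelial differentiation, read 16173, 18200 and 12350 against 1374 (3.44 ± 0.46), and Pparg, a nuclear receptor that drives it, read 7102, 5322 and 5888 against 1377 (2.10 ± 0.49). Tfap2a, prominent in epidermis and neural crest, was the 1 member called lower, and without adult replicate 1 or 3 it was not called (adjusted p = 0.1001 and 0.0539). Among 15 junction and barrier genes 5 rose, 3 without adult replicate 1, 9 without replicate 2 and 3 without replicate 3. Cldn8, a claudin of tight epithelia, read 11093, 2347 and 7513 against 385 (3.76 ± 0.81), whereas Cldn3 read 69.8, 66.6 and 139 against 626 and fell (-2.30 ± 0.60).

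The contractile apparatus of smooth muscle was called higher throughout. Of 28 listed genes 27 were tested, and all 27 were called higher, 23 of them under all 4 scalings, with a median of 2.97 log2. Without adult replicate 1, 2 or 3 the count was 26, 27 or 25. In the reference 3 of the 27 lay at or below the median and were tested only through adult bladder. Cnn1, calponin, an actin-binding protein of differentiated smooth muscle, read 20997, 26848 and 22175 against 243 (6.31 ± 0.40, adjusted p = 2.56e-05). Synm, an intermediate filament protein, read 63421, 50145 and 63291 against 1048 (5.74 ± 0.32). Synpo2, an actin-bundling protein, read 66616, 46680 and 62439 against 1118 (5.63 ± 0.36). These 3 lay far above the reference in every adult array. Myh11, the smooth muscle myosin heavy chain, read 64284, 34338 and 57020 against 1463 (5.05 ± 0.38, adjusted p = 4.85e-05), and Tagln, transgelin, read 46125, 52115 and 46698 against 1542 (4.92 ± 0.30). Actg2, whose promoter drives the transgene, read 55018, 83845 and 53325 against 8327 (2.90 ± 0.30, adjusted p = 0.000199). Acta2, the vascular and general smooth muscle actin, rose by 1.63 ± 0.26 log2 from a reference of 29875, and without scaling it was not called (adjusted p = 0.140). Vcl, vinculin, which ties actin to adhesion sites, rose by 1.80 ± 0.33 from 14766. Tpm1 rose by 3.79 ± 0.39 at its brightest probe set, but 1 of its other 3 tested probe sets was called in the opposite direction and the mean of its probe sets did not pass (0.11, adjusted p = 0.842).

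Smooth muscle genes are known to be switched on by serum response factor, encoded by Srf, and its partner myocardin, encoded by Myocd, which bind the CArG box. Both regulators rose: Srf read 11856, 5883 and 11658 against 1304 (2.79 ± 0.55) and Myocd read 4993, 7046 and 3403 against 457 (3.30 ± 0.62). In windows from 250 bases before to 50 bases after gene starts (RefSeq, GRCm38.p6), the CArG box was found on either strand in 3 of the 22 tested smooth muscle members that had a window (13.6%), beside 488 of 27025 genes (1.81%). Actg2, Myh11, Tagln, Myocd and Nexn had no window in the table. The upstream stretches of the 3 matches are shown with the box in capitals, as examples of the sequence that the members that rose together can carry; a match is a description and no evidence of binding. The Srf stretch is chr17:46556170-46556289 on the minus strand, with boxes that begin 82 and 62 bases before the start, Myl9 is chr2:156775258-156775357 on the plus strand, with the box 161 bases before, and Vcl is chr14:20929148-20929225 on the plus strand, with the box 227 bases before.
Srf: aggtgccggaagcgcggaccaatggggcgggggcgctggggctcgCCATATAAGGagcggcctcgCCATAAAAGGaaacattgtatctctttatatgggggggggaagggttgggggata
Myl9: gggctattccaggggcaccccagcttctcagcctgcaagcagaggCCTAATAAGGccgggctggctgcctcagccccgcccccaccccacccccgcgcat
Vcl: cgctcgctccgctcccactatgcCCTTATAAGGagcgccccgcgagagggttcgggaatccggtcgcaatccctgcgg

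Receptors and channels of the detrusor followed. Of 20 tested, 12 rose and none fell, 10 of them under all 4 scalings. In the reference 10 of the 23 on the array lay at or below the median. Some were therefore tested only through adult bladder, and the count describes the list and does not test it. P2rx1, the ATP-gated channel behind purinergic contraction, read 11414, 4250 and 15202 against 161 (5.44 ± 0.66, adjusted p = 0.000537). Pde5a, which breaks down cyclic GMP, read 51371, 33375 and 52443 against 1484 (4.87 ± 0.43, adjusted p = 8.32e-05). Mrvi1, a target of cyclic GMP-dependent kinase that restrains calcium release, read 32668, 26020 and 31986 against 642 (5.45 ± 0.45). Avpr1a, a vasopressin receptor, read 9510, 3014 and 8730 against 256 (4.38 ± 0.71). All adult values exceeded the reference for these 4 genes, and for P2rx1 and Avpr1a replicate 2 was less than the others. Kcnmb1, the beta subunit of the large-conductance calcium-activated potassium channel, read 1088, 1130 and 1355 against 54.9 (3.57 ± 0.52). Its pore gene Kcnma1 rose by 3.22 ± 0.51 at the brightest probe set but not as a mean of probe sets (0.51, adjusted p = 0.406). The L-type calcium channel gene Cacna1c rose by 2.24 ± 0.47 from 272.

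Some positional and mesenchymal regulators were higher. Of 12 caudal Hox genes on the array 8 were tested, as 4 lay at or below the median in all 4 arrays, and 5 rose. With no filter 4 of the 12 were called higher. Of the 12, 7 lay at or below the median in the reference, so some were tested only through adult bladder and the count describes the list. Of 12 rostral Hox genes tested 2 rose and 1 fell, where 16.7% of all genes were called higher and 7.01% lower. Hoxa9 read 29829, 16048 and 29425 against 924 (4.64 ± 0.46, adjusted p = 0.000153), and Hoxd13, a marker of the most caudal body, read 10663, 5670 and 11089 against 607 (3.75 ± 0.52). Hoxd10 and Hoxa10 rose by 3.57 ± 0.48 and 3.51 ± 0.64. Hoxc8, of the trunk, read 101, 155 and 44.6 against 1037 and fell (-2.93 ± 0.73, adjusted p = 0.0184). The rostral median of 0.30 log2 turned negative without scaling and at the 75th percentile. Hand2, a regulator of sympathetic and limb mesenchyme, read 5482, 8156 and 6511 against 555 (3.47 ± 0.54). Of 14 tested transcription factors of bladder mesenchyme 4 rose and none fell; 3, 8 and 3 rose without adult replicates 1, 2 and 3, and 1 when probe sets were averaged. Gata2 rose by 2.71 ± 0.44 and Foxf1, a factor of gut and bladder mesenchyme, by 2.44 ± 0.57, although Foxf1 was not called when probe sets were averaged before the fit (adjusted p = 0.18). Of 19 genes of fibroblasts and small proteoglycans, 8 rose and 1 fell, 3 and 1 of them under all 4 scalings. The fall was Aspn, asporin (772, 326 and 788 against 2082, adjusted p = 0.0472), which was not called without adult replicate 1 or 3 (adjusted p = 0.0621 and 0.0695) or without any 1 newborn bladder array. Pi16, a secreted protein of fibroblasts, read 3120, 4658 and 4615 against 360 (3.33 ± 0.49), and Prelp, a matrix proteoglycan, read 5669, 5792 and 6368 against 826 (2.77 ± 0.56). Newborn bladder had a mean of 1169 for Pi16 and 791 for Prelp, and both were higher in adult than in newborn bladder (adjusted p = 0.014 and 0.00206). Kit, the receptor of interstitial and mast cells, read 3721, 2268 and 3700 against 362 (2.96 ± 0.49), while the mast cell genes Cma1, Cpa3 and Hdc fell; Hdc, which makes histamine, read 8.05, 11.5 and 18.7 against 1692.

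Genes of detoxification stood high in adult bladder. Of 24 tested, 10 rose and 2 fell, 7 and 2 of them under all 4 scalings. Both falls lost their calls when only the 4 arrays compared were fitted. Of the 24, 8 were higher in adult than in newborn bladder. That contrast does not use the reference, and 754 of 13472 genes (5.6%) were called in it in either direction. Gstm1, a glutathione transferase, read 31359, 38091 and 34303 against 686 (5.55 ± 0.45, adjusted p = 6.92e-05), with a newborn bladder mean of 9245. Its probe set may also read other sequences, and its other 3 tested probe sets had differences of the same sign. Aldh3a1, an aldehyde dehydrogenase of barrier epithelia, read 2591, 1943 and 2480 against 72.6 (4.28 ± 0.46, adjusted p = 0.000257). Its newborn bladder mean was 61.1, close to the reference. Inmt, a methyltransferase for amines, read 16462, 13108 and 15604 against 774 (4.19 ± 0.50), with a newborn bladder mean of 556. Aox1, an aldehyde oxidase, read 6489, 5344 and 4659 against 443 (3.48 ± 0.45), with a newborn bladder mean of 576. Aldh3a1, Inmt and Aox1 were thus high in the adult arrays and near the whole newborn in newborn bladder, and each differed between adult and newborn bladder (adjusted p = 0.00015, 0.00015 and 0.00041). Gsta4, which clears lipid peroxidation products, was high at both ages (53759, 57466 and 50313 in adult bladder, a mean of 32410 in newborn bladder, 2914 in the reference). Cyp2e1 and Ces1d, abundant in liver, fell; Cyp2e1 read 4442, 377 and 2850 against 29942.

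Antigen presentation and defence genes were partly higher. Of 10 tested genes of MHC class I and peptide loading 7 rose. Under all 4 scalings 3 rose, and 4, 8 and 3 rose without adult replicates 1, 2 and 3. In the reference 3 of the 10 lay at or below the median and were tested only through adult bladder. Nlrc5, which switches on class I genes, read 1827, 1792 and 2413 against 130 (3.51 ± 0.53, adjusted p = 0.00167), and its newborn bladder mean was 175. H2-K1, a class I heavy chain, read 30299, 18657 and 25489 against 5046 (2.26 ± 0.44); its probe set may also read near-identical class I genes. In the adult against newborn bladder contrast 5 of the 10 were higher in adult. Gbp2, an interferon-induced GTPase, read 18804, 16589 and 16298 against 1031 (4.00 ± 0.66), and 7 of 17 interferon response genes rose, 4 without adult replicate 3. C1s1, a protease of the complement cascade, rose by 2.82 ± 0.64 from 2501. The MHC class II gene H2-Aa read 2410, 11112 and 2416 against 656 and 95.4 in newborn bladder; its call against the reference (adjusted p = 0.0409) was lost under the other 3 scalings and without any 1 newborn bladder array (adjusted p = 0.0612, 0.0551 and 0.0585). Of 16 macrophage genes 2 were called higher (0 without adult replicate 1 or 3, with limma) and 1 lower (0 without replicate 3), and Csf1r, the macrophage growth factor receptor, read 11331, 20984 and 12271 against 17978 and did not pass.

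Genes of organs other than bladder were prominent among the falls. All 21 tested genes of liver plasma proteins, of 23 listed, fell, with a median of -6.81 log2, and did so under all 4 scalings. A gene absent from bladder could be tested only because the newborn was above its median, so such counts describe and do not test the list. Afp, alpha-fetoprotein of the fetal liver, read 2.56, 45.5 and 0.747 against 50258, and Apoa1, of high-density lipoprotein, read 8.51, 5.53 and 13.2 against 37869. The Apoa1 probe set may also read other sequences, and its other 3 tested probe sets had differences of the same sign. Igfbp1, a liver-made binder of insulin-like growth factors, read 10.6, 9.45 and 35.7 against 42714. These 3 genes were dim in every adult array. Ttr, a carrier of thyroid hormone, fell less (7387, 7626 and 10676 against 51548, -2.60 ± 0.60), and so did Rbp4, a carrier of retinol (3015, 1694 and 3826 against 21286). Of 13 liver enzymes 11 fell; Cps1, the first enzyme of the urea cycle, read 60.8, 58.6 and 90.5 against 34420. Of 9 erythroid genes 5 fell, among them Slc4a1, the anion exchanger of red cells (61.4, 180 and 268 against 11436).

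Striated muscle was next. Of 29 sarcomere genes of skeletal muscle 25 fell and 2 rose, the latter being Trdn at 1 probe set and Des, the intermediate filament gene shared with smooth muscle, whose call was lost without scaling and after quantile normalization. Myh3, the embryonic myosin heavy chain, read 19.9, 13.4 and 16.5 against 28465, and Tnnc2, troponin C of fast fibres, read 198, 129 and 213 against 32600. Newborn bladder differed from adult bladder here. It had a mean of 9031 for Myh3, 7281 for Myh8 and 11987 for Tnnc2, and 8 of the 29 were lower in adult than in newborn bladder. The summed scaled intensity of the 29 genes was 48092 to 53709 in the adult arrays, 122378 to 163399 in newborn bladder and 397817 in the reference. Acta1, the skeletal actin, read 19297, 14640 and 17602 in adult bladder, a mean of 59969 in newborn bladder and 58388 in the reference, and was lower in adult than in newborn bladder (adjusted p = 0.00149). Of 16 cardiac genes 8 fell, led by Myl2, the ventricular regulatory light chain (4.27, 18.97 and 42.9 against 14612). Tnnt2, cardiac troponin T, was called higher (30586, 7701 and 34928 against 4313, adjusted p = 0.0407), a call that ended under each of the other 3 scalings and without any 1 array other than adult replicate 2.

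Skin, gland, gut, lung and skeleton followed. Of 30 tested genes of cornified epidermis and hair, 23 fell. Krt10, a keratin of upper epidermis, read 822, 1184 and 734 against 67393 (-6.16 ± 0.50), and Lor, loricrin of the cornified envelope, read 212, 131 and 96.0 against 29714. Krt14, a basal keratin, read 15.8, 307 and 77.6 in adult bladder and a mean of 6101 in newborn bladder, against 8787. It was lower in adult than in newborn bladder (adjusted p = 0.00116). Against this direction, 4 members rose: Sprr1a, Ivl, Trp63 and Krt15, of which Trp63 was not called as a mean of probe sets (adjusted p = 0.104) and Krt15 not without scaling or after quantile normalization (adjusted p = 0.0524 and 0.0845). Ivl, involucrin, an envelope precursor, read 13764, 24837 and 13939 against 1211 (3.74 ± 0.47), and Sprr1a, a small proline-rich envelope protein, read 27807, 44576 and 24693 against 1472 (4.36 ± 0.43). Of 15 genes of exocrine pancreas and salivary gland 12 fell, of 20 gut genes 12, of 15 cartilage genes 10, of 12 lens and eye genes 8, of 12 lung genes 7, of 13 bone and tooth genes 7 and of 11 brown fat genes 6. Ucp1, the uncoupling protein of brown fat, read 152, 13.3 and 5.27 against 24822, and Sftpc, a lung surfactant protein, read 135, 145 and 72.9 against 12301. Col2a1, the collagen of cartilage, read 19.6, 21.2 and 11.8 against 4616, and Cryba1, a lens crystallin, read 14.7, 7.83 and 3.78 against 4260.

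Brain genes fell less evenly. Of 22 neuronal genes 11 fell and 1, Rbfox3, rose. Dcx, doublecortin of migrating young neurons, read 10.6, 61.8 and 81.7 in adult bladder against 4584, and Stmn4, a microtubule regulator, read 36.4, 22.3 and 31.9 against 1125. Newborn bladder had means of 2782 for Dcx and 847 for Stmn4, and both were lower in adult than in newborn bladder (adjusted p = 0.000235 and 0.000344). Rbfox3, a splicing factor known as a neuronal marker, read 10675, 6632 and 10937 against 1262 (2.82 ± 0.57), with a newborn bladder mean of 9791.

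**Figure D3:**
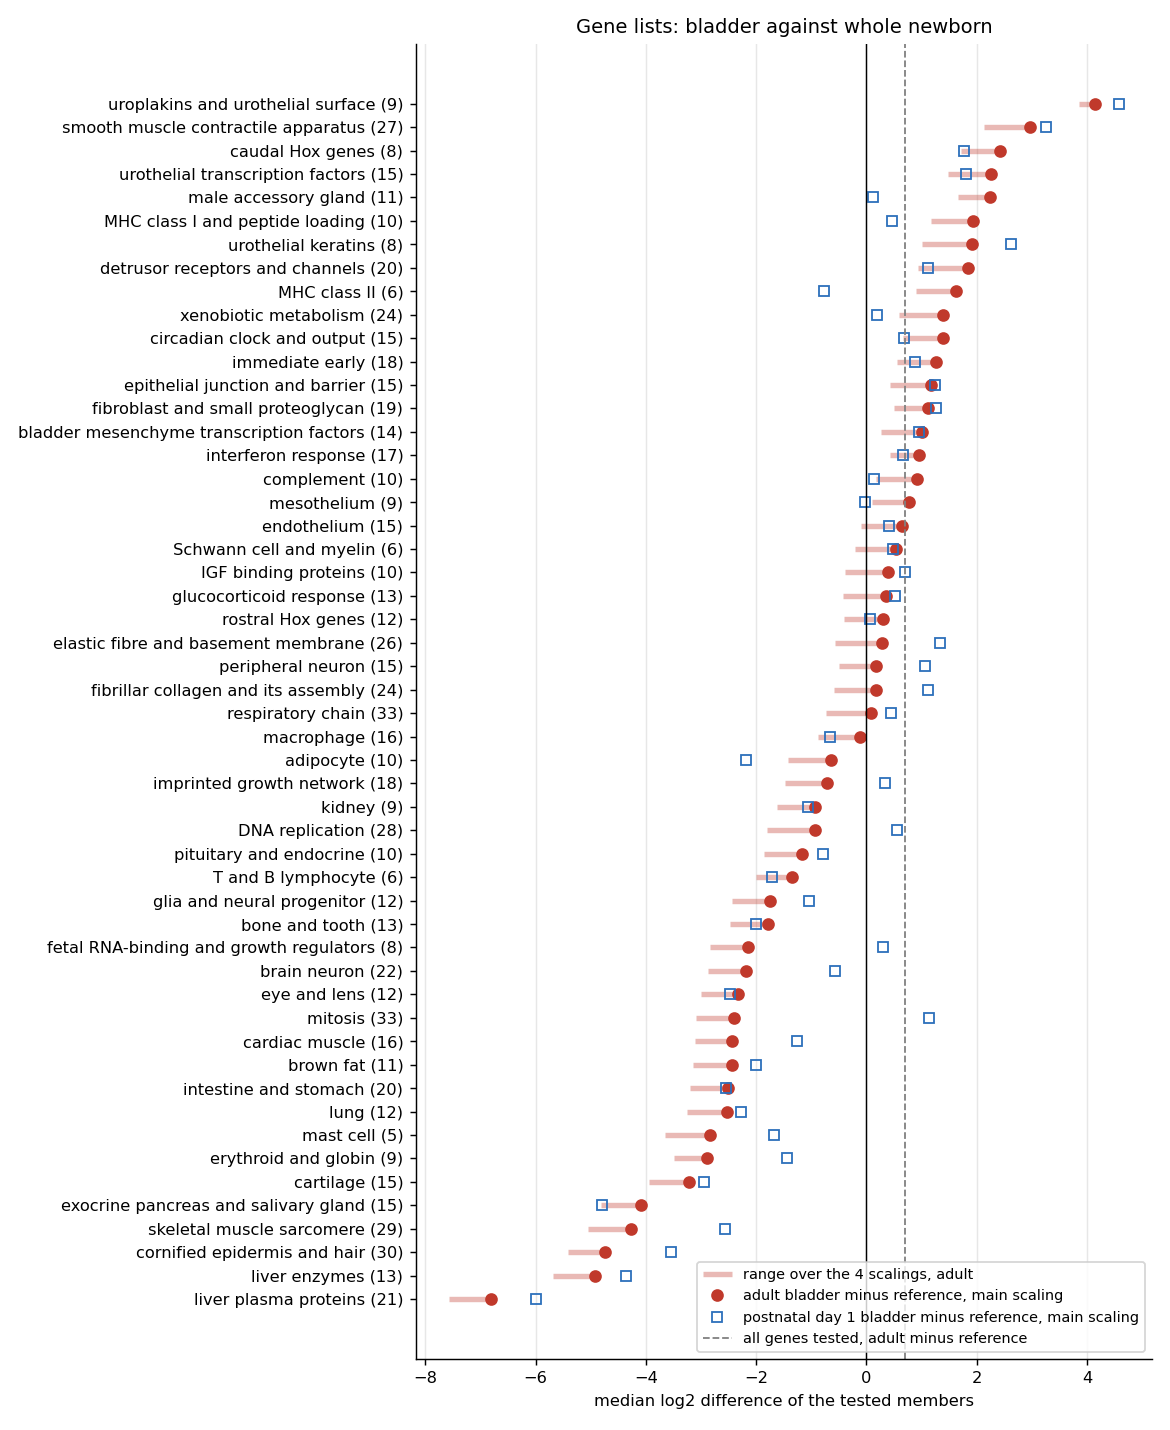
Median log2 difference of the tested members of each gene list (number tested in brackets; lists with at least 5 tested) for adult bladder (red circles) and newborn bladder (blue squares) against the 1 whole newborn array; pale bars span the 4 scalings for adult bladder and the dashed line is the median of the genes tested, 0.71. Uroplakin and smooth muscle lists lie at the right for both ages and liver lists at the left, while mitosis lies at -2.40 in adult bladder and 1.14 in newborn bladder.

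Genes of cell division were low in adult bladder. Of 33 tested mitosis genes 28 fell and none rose, with a median of -2.40 log2. Of the 33, 16 lay at or below the array median in all 3 adult arrays and were tested only because the reference was above its median, so this count describes the list and does not test it. Without adult replicate 1, 2 or 3, 20, 28 or 21 fell. Mki67, the proliferation antigen, read 594, 548 and 368 in adult bladder against 8912 (-4.04 ± 0.53, adjusted p = 0.000793), and its newborn bladder mean was 10523. Top2a, the topoisomerase that untangles chromosomes, read 635, 514 and 660 against 5796 (-3.17 ± 0.48), with a newborn bladder mean of 9875. Cdc20, which activates the anaphase-promoting complex, read 610, 1617 and 913 against 11916 (-3.55 ± 0.55), with a newborn bladder mean of 20233. For these 3 genes the newborn bladder mean was above the whole newborn and every adult array was far below both. All 33 genes were lower in adult than in newborn bladder, a contrast without the reference in which 5.6% of genes were called in either direction. The summed scaled intensity of the 33 genes was 8574 to 9826 in adult bladder, 110940 to 148036 in newborn bladder and 61525 in the reference. Of 28 DNA replication genes 7 fell (3 without adult replicate 1, 10 without replicate 2, 3 without replicate 3, 19 without scaling), among them Rrm2, which makes deoxyribonucleotides (2077, 1423 and 1865 against 15353). Pcna, the sliding clamp, read 9135, 6094 and 9154 against 10701 and did not pass (adjusted p = 0.527).

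Promoters of mitotic genes are known for a short element whose core is TTTGAA, through which they are held off in resting cells. TTTGAA, read on both strands and chosen after the values were seen, was found in the same windows of 22 of the 29 tested mitosis genes with a window (75.9%), beside 5466 of 27025 genes (20.2%); Ccna2, Aurkb, Kif20a and Tpx2 had no window. Upstream stretches of Cdc20 and Top2a, 2 of the genes that fell, are shown with the match in capitals (RefSeq, GRCm38.p6). A match is a description and no evidence of binding, and what part the element plays in the low values was not tested. The Cdc20 stretch is chr4:118437344-118437406 on the minus strand, with the match 18 bases before the start, and the Top2a stretch is chr11:99024190-99024413 on the minus strand, with matches 179 and 23 bases before.
Cdc20: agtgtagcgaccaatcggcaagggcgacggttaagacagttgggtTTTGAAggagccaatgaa
Top2a: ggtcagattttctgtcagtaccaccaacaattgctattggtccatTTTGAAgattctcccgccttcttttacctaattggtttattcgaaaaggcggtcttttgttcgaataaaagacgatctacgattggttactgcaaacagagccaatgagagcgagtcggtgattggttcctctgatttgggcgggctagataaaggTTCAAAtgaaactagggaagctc

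Fetal growth regulators were low as well. Of 18 imprinted genes of the growth network 8 fell and 4 were called higher, and the latter count was 1 without adult replicate 1 or 3 and 1 under all 4 scalings. Igf2, insulin-like growth factor 2, read 554, 1206 and 832 in adult bladder, a mean of 13187 in newborn bladder and 27329 in the reference (-4.97 ± 0.51, adjusted p = 0.00019). Cdkn1c, an inhibitor of cell cycle kinases, read 496, 643 and 520 against 9266, and Dlk1, a transmembrane ligand of progenitor cells, read 67.1, 194 and 134 against 2450. Newborn bladder had means of 8703 for Cdkn1c and 2512 for Dlk1, close to the whole newborn, and all 3 genes were lower in adult than in newborn bladder (adjusted p = 0.00034 each). Igf2bp3, a fetal RNA-binding protein, read 1053, 476 and 1188 against 6700, and its newborn bladder mean was 11850. Fbn2, a fibrillin of early elastic fibres, read 291, 75.2 and 309 in adult bladder, a mean of 28836 in newborn bladder and 10805 in the reference (-5.46 ± 0.63, adjusted p = 0.00037). It was the 1 member of 26 elastic fibre and basement membrane genes called lower, while 6 were called higher, among them Fbln1, fibulin 1 (32185, 14323 and 24115 against 1134). Under all 4 scalings 5 were higher and 1 lower. Without scaling, at the 75th percentile and after quantile normalization 4, 2 and 4 were called lower, and the list's median of 0.29 turned negative.

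**Figure D4:**
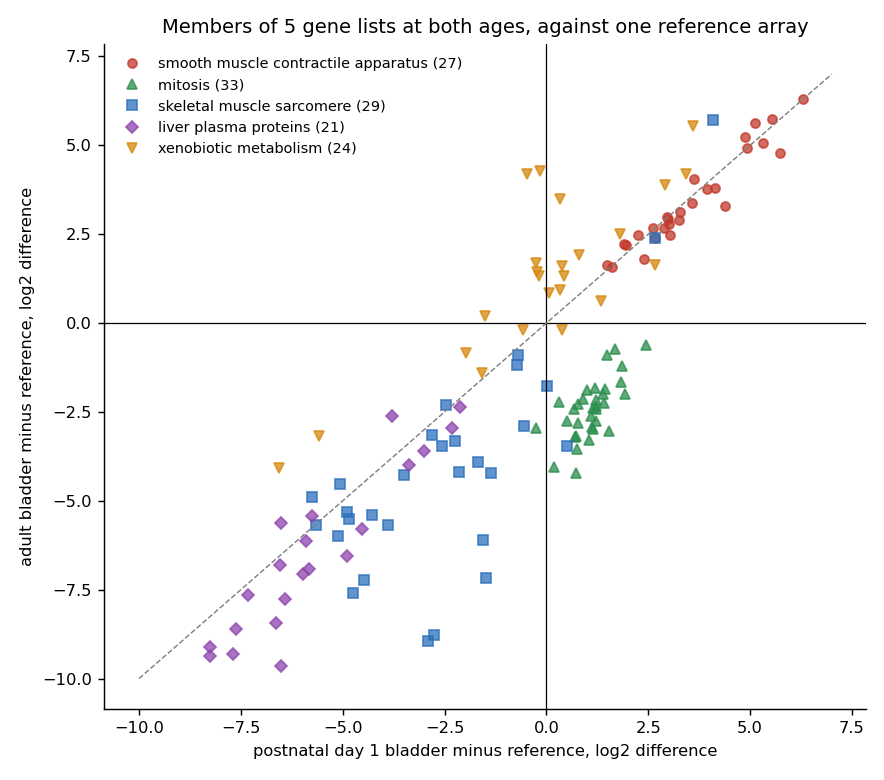
Log2 difference from the 1 whole newborn array in newborn bladder (horizontal axis) and adult bladder (vertical axis), 1 point per tested gene of 5 lists; the dashed line marks equal differences, and both axes share the reference array. Smooth muscle and liver genes lie near the line, the 33 mitosis genes lie below 0 in adult bladder and mostly above 0 in newborn bladder, and Myh3 and Myh8 lie at the bottom near -3 on the horizontal axis.

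Some groups lay close to the whole newborn after median scaling. Of 24 genes of fibrillar collagen and its assembly 1, Thbs2, was called higher and was lost without adult replicate 1 or 3 (adjusted p = 0.0532 and 0.0618), and their median of 0.18 turned negative under the other 3 scalings. Without scaling, at the 75th percentile and after quantile normalization 4, 3 and 3 of the 24 were called lower. Col3a1, collagen III, read 75753, 89589 and 68527 against 68421, and Col1a1, collagen I, read 7173, 9944 and 8082 against 15934 with a newborn bladder mean of 34645. Neither passed against the reference (adjusted p = 0.583 and 0.143), and Col1a1 was lower in adult than in newborn bladder (adjusted p = 0.00518). Of 15 endothelial genes 1, Ptprb, was called and was lost without adult replicate 1 or 3 (adjusted p = 0.136 and 0.14), and the list's median of 0.64 turned negative without scaling. Of 33 respiratory chain genes 2 were called higher (none without adult replicate 1 or 3, with limma) and 3 lower; the latter were Cox7a1, Cox6a2 and Cox8b, isoforms of muscle and brown fat. Cox6a2 read 251, 253 and 288 against 2347. The median of this list, 0.09, also turned negative under the other 3 scalings. Without scaling, at the 75th percentile and after quantile normalization 11, 7 and 13 of the 33 were called lower. Over all 13472 genes tested these settings called 1569, 1340 and 1411 lower.

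The adult arrays differed from each other. With 1 array per animal, animal, dissection and array handling cannot be told apart. In adult replicates 1 to 3 the spike-in control signal, relative to the array where it was lowest, was 1, 2.33 and 1.10. The ratio of 3-prime to 5-prime control probe sets was 15.3, 19.6 and 15.4 for Gapdh and 4.83, 3.84 and 5.15 for Actb. What part these play was not tested. Adult replicate 2 was the lowest of the 3 adult arrays for 63.2% of all genes tested and the highest for 21.8%, so counts of this kind are read against those shares. Genes of the immediate early response, which are switched on within minutes of a stimulus, were highest in adult replicate 2 for 16 of 18. Fos read 21472, 72304 and 19806 against 2978 and was called higher (3.37 ± 0.71), and Egr1 read 14101, 59996 and 13194 against 9353 and was not (adjusted p = 0.208). The 15 tested genes of the circadian clock were all lowest in replicate 2, with a median gap to the mean of the other adult arrays of -1.09 log2 beside -0.42 for all genes; 3 were called higher, 1 without adult replicate 1, 10 without replicate 2 and none without replicate 3 (limma, adjusted p under 0.05). Nr1d2, a repressor of the clock, read 26819, 7309 and 22766 against 2111, and was not called without adult replicate 3 (adjusted p = 0.0553). Of 15 peripheral neuron genes 12 (80%) were lowest in replicate 2, beside 63.2% of all genes. Their median gap to the mean of the other adult arrays was -1.77 log2, beside -0.42 for all genes. Their summed scaled intensity was 38432, 14562 and 37695 in adult replicates 1 to 3, 23259 to 54309 in newborn bladder and 16462 in the reference. Ret, the receptor of neurons of the bladder wall and ganglia, read 6562, 179 and 4693 against 451. Vip, a relaxing neuropeptide, read 12621, 756 and 13267 against 931. Neither gene passed, with adult arrays on both sides of the reference (adjusted p = 0.323 and 0.229). Without adult replicate 2 both Ret and Vip were called higher (adjusted p = 0.000679 and 0.00852). Both were named after their values were seen. With all arrays 2 of the 15 were called higher and 2 lower, beside 16.7% and 7.01% of all genes. The falls were Tac1 and Gap43, and both held under all 4 scalings. Without adult replicate 2, 5 were called higher and 2 lower, beside 4206 and 1044 of 13270 genes.

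**Figure D5:**
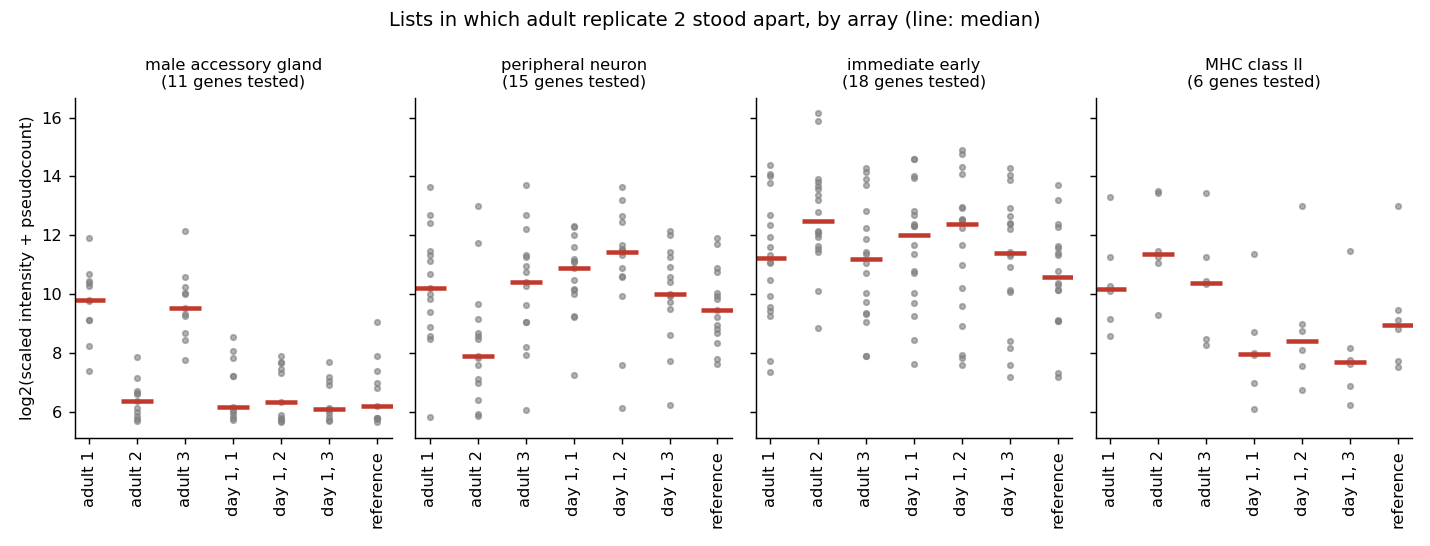
Log2(scaled intensity + pseudocount) of the tested members of 4 lists (grey points, red line at the median) in each of the 7 arrays. Adult replicate 2 has the lowest medians of the adult arrays for male accessory gland and peripheral neuron and the highest for immediate early and MHC class II; the other 2 adult arrays lie close to each other.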

How the data were processed

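The deposited table holds intensity values on a linear scale for 45101 probe sets on 7 arrays; per the submitters' processing notes the authors used GCOS, with no version, summary method or target stated. A trimmed mean (2% off each end) of about 1500 on all arrays shows values already scaled to a common mean by the authors. No detection calls were used. Control probe sets (64) were left out; of the rest 34945 name 1 gene, 932 several and 9160 none, and those naming 1 gene gave 18193 genes by the probe set with the highest mean. Each array was scaled to a common median, 49 (the 20th percentile of all values) was added and log2 taken. Genes above the array median in at least 1 of the 4 arrays compared were tested with limma 3.58.1 in R 4.3.3 (moderated variances with an intensity trend, two-sided, called at a Benjamini-Hochberg adjusted p below 0.05). The fit held 7 arrays in 3 groups with 4 residual degrees of freedom, the single reference array being assumed to vary like the bladder arrays. The labels do not tie replicates to cultures or litters beyond single animals. The p-values set each difference against the spread between the bladder arrays, and the number of arrays limits the precision.

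The comparison and the 53 gene lists (972 genes, 888 on the array, 786 tested) were chosen with earlier results of these data known. The rule for naming genes took the top 15 in each direction by log2 difference, if called and with the 3 adult arrays on one side of the reference (clone names were only counted), then from each list the leading 4 members by adjusted p, called or not, and any called against its direction, and Actg2, Acta2 and sex-linked genes. A further 65 genes, and Car6, Elavl2 and Fyn, were named after their values were seen. Alternatives were 2 other pseudocounts (17 and 128), no scaling, scaling at the 75th percentile, quantile normalization, no filter and a stricter one, eBayes without a trend or robust, only the 4 arrays compared, means of probe sets, a fold minimum of 2, leaving out each bladder array, and adult replicate 2 alone. On simulated data of 13472 genes, changes were planted in 50 genes at each size. Those of 1, 2, 3 and 4 log2 were called in 4%, 32%, 80% and 100% of cases, and 13 of 13272 unchanged genes were called. The simulated noise was independent and normal, with the spread of the bladder arrays given to the reference as well, and no shift of a whole array was simulated. These shares therefore rest on the assumption that the reference varies like the bladder arrays, and they do not test it.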

Additional observations from a re-analysis of the deposited data

Results flagged for a closer look

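Among the genes with the largest differences from the whole newborn, 5 also differed between adult and newborn bladder (limma, adjusted over 13472 genes). Fbxo32, a ubiquitin ligase known from wasting muscle, was 3.48 log2 higher in adult than in newborn bladder (adjusted p = 0.0021), with 41600, 28332 and 35666 in the adult arrays, a mean of 3620 in newborn bladder and 561 in the whole newborn. Gstm1 was 1.95 log2 higher in adult bladder (adjusted p = 0.0064). Mrvi1 was 1.51 log2 higher in adult bladder (adjusted p = 0.0201), with a newborn bladder mean of 10884. Myh8 and Myh3, myosins of developing skeletal muscle, had adult minus newborn bladder differences of -6.04 and -6.01 log2 (adjusted p = 0.00024 and 0.0097). For Myh3, 1 of the 3 newborn bladder arrays read 366, and the other 2 read 13110 and 13616.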

How the results depend on the processing

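The counts depended most on scaling and on single adult arrays. Without scaling 1102 genes were higher and 1569 lower, and at the 75th percentile 1421 were higher. With only the 4 arrays compared, 2209 probe sets were called, beside 3542. Leaving out 1 bladder array gave 1736 to 5250 genes, 969 to 4206 higher, and 1482 to 6663 probe sets; with adult replicate 2 as the only adult array there were 1414 genes, 612 of them higher, and 860 probe sets. Other settings stayed within 1.5 times of the main counts. Of 306 named genes 17 changed sign under at least 1 alternative. For 15 of them neither the value with all arrays nor that of the other sign passed, as for Krt5, Ret, Vip, Snap25, Col3a1, Csf1r and Car3. The other 2 were Uqcrb without scaling (-0.0085, adjusted p = 0.989) and Prol1 without adult replicate 2 (2.02, adjusted p = 0.0107; from -2.57 without replicate 1; -1.03 with all arrays, not called); the cause was not tested. No paired analysis was possible because the labels give the arrays no shared replicate numbers. Dim probe sets have no measured detection limit here, and the reference has no replicate, so its own error is unknown.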

Other observations

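Between the adult arrays, 9 of 12908 genes with gene names were at least 4 log2 higher in both replicates 1 and 3 than in replicate 2, and none was that much higher in replicate 2. Prol1, a secreted protein of salivary and related glands, read 29430, 1.51 and 27865 in adult replicates 1 to 3 and 7016 in the whole newborn, and Car6, a secreted carbonic anhydrase, read 12787, 129 and 12407 against 7696. Snap25, a protein of neurotransmitter release, read 2811, 8.57 and 2526 against 856, and Elavl2, a neuronal RNA-binding protein, read 3736, 132 and 4172 against 5336. Fyn, a kinase, read 31230, 1081 and 32240 against 4397. The other 4 were Ret, Svs2, Svs4 and Svs5.

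Of 10 adipocyte genes 9 were lowest in adult replicate 2, beside 63.2% of all genes tested. Against the whole newborn 2 of the 10 were called higher and 3 lower, 0 and 3 of them under all 4 scalings. Over all genes tested 16.7% were called higher and 7.01% lower. Lpl, lipoprotein lipase, read 38728, 9298 and 33875 in the adult arrays, a mean of 7996 in newborn bladder and 49107 in the whole newborn, and Adipoq, adiponectin, read 1411, 409 and 1437, a mean of 28.3 and 5722. Car3, a carbonic anhydrase of fat and muscle, read 55193, 56694 and 54821 against a newborn bladder mean of 17496, and was higher in adult than in newborn bladder (adjusted p = 0.0025). Against the whole newborn Car3 was not called.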
